A study of Mus musculus with 4 samples.

Results

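Globin transcripts were followed through single cells of the mouse lung at 4 ages. The 8 genes, taken by their symbols from the 27998 genes counted, comprise the adult alpha globins Hba-a1 and Hba-a2, the adult beta globins Hbb-bs and Hbb-bt, the embryonic globins Hbb-y, Hbb-bh1 and Hba-x, and Alas2. All 4 libraries come from lungs of wild-type male C57BL/6 mice, digested with collagenase D and DNase1 and passed through dead cell removal. The ages are 10 days (NB), 2 months (2 M), 10 months (10 M) and 18 months (18 M), with 1 library each, so the age and the library cannot be told apart and no test between ages was made. Each gene is described over all 34037 cell barcodes, in the 4782 barcodes where the 4 adult globins hold at least 50% of the unique molecular identifiers (UMIs), called haemoglobin-dominated here, and in T cells gated by marker genes.

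Haemoglobin of the adult mouse pairs alpha chains, from genes on chromosome 11, with beta chains, from genes on chromosome 7. Hba-x and the pair Hbb-y and Hbb-bh1 are the counterparts used by the primitive red cells of the embryo, while Alas2 encodes the red cell form of the first enzyme of haem synthesis. Globin mRNA fills reticulocytes, the red cells that have just lost their nucleus, and it leaks from broken red cells into a cell suspension, where droplets take it up with any cell.

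The libraries held 7366 (NB), 6283 (2 M), 9091 (10 M) and 11297 (18 M) barcodes, with 33087004 to 64863474 UMIs in all and medians of 3993 to 4137 UMIs per barcode. Any pair of libraries shared 17 to 28 barcodes. Xist, the RNA of the inactive X chromosome, had 0.302 to 0.463 UMIs per 1000000 (CPM) in NB, 2 M and 10 M but 497 CPM in the library labelled 18 M, which also held 167 CPM of Y-linked genes against 299 to 364 CPM in the others. Xist thus goes against the male label of this library, and values of the other 3 libraries are given beside it throughout.

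The genes are placed as follows in mm10. Hba-x (chr11:32276400-32278116), Hba-a1 (chr11:32283511-32284465) and Hba-a2 (chr11:32296489-32297298) lie in a row on the plus strand. Hbb-bt (chr7:103812524-103813996), Hbb-bs (chr7:103826534-103828096), Hbb-bh1 (chr7:103841637-103843164) and Hbb-y (chr7:103851749-103853216) lie on the minus strand, and Alas2 (chrX:150547375-150570638) on the plus strand. The 120 bases before the RefSeq start (GRCm38.p6) of 5 of the genes are shown because the adult genes and Alas2 kept the same order of libraries while the embryonic genes were at the edge of detection. Capitals mark matches, on either strand, to 4 motifs found at globin and red cell promoters. These are CACCC with its reverse complement GGGTG, the box CCAAT with its reverse complement ATTGG, the TATA-like motif ATATAA with its reverse complement TTATAT, and the GATA motif AGATAA with its reverse complement TTATCT.
Hba-a1: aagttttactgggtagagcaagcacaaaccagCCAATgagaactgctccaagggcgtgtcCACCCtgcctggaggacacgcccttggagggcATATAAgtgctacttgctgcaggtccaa
Hbb-bs: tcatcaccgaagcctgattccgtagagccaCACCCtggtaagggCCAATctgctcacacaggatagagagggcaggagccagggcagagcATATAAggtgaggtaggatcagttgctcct
Hbb-bt: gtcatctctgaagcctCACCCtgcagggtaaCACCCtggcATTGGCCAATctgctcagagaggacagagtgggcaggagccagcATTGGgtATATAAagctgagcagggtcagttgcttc
Hbb-y: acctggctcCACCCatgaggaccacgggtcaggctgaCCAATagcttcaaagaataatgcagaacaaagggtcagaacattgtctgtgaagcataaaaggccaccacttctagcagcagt
Alas2: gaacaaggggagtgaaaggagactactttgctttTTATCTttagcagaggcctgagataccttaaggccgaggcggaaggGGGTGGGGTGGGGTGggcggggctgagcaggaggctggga
These windows are chr11:32283552-32283671, chr7:103827929-103828048, chr7:103813924-103814043, chr7:103853208-103853327 and chrX:150547297-150547416 in that order. RefSeq promoters were matched for 7 of the 8 genes, and the entry for Hbb-bh1 was not among them.

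The 4 adult genes each hold the CACCC motif, the CCAAT box and the TATA-like motif in this window. Of 32851 mouse promoters of the same length, 31.7% hold the first, 21.3% the next, 4.47% the TATA-like motif and 0.286% all 3. Hbb-y holds the first 2 motifs, Hba-x holds CACCC and the TATA-like motif, and Alas2 holds 3 copies of CACCC end to end on the other strand with 1 GATA motif, found in 4.36% of promoters. A match describes the letters only and shows no binding. The Hba-a1 and Hba-a2 windows were 100% identical over 117 aligned bases, and those of Hbb-bs and Hbb-bt 77.1% identical over 118.

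The adult copies are also alike in their transcripts, which can limit how well reads are assigned to one of them. Hba-a1 and Hba-a2 transcripts were 99.8% identical over 538 aligned bases, and 58.9% of the 90-base stretches of Hba-a1 were found letter for letter in Hba-a2. Hbb-bs and Hbb-bt were 93.1% identical over 621 aligned bases, and 63.3% of the stretches of Hbb-bs were found in Hbb-bt. These stretches were taken over whole transcripts, while the reads come from the 3′ end, so they do not give the share of ambiguous reads. The split between copies may be uncertain, and how far was not tested. Whether shared reads were kept in the alpha and beta sums was not tested either.

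Adult globin RNA was a large part of every library, lowest at 2 M and highest in the library labelled 18 M. The 4 adult genes held 9.38% of all UMIs in NB, 6.52% at 2 M, 11.3% at 10 M and 16.2% in the library labelled 18 M. Each UMI stands for 1 molecule caught at its 3′ end, so the levels of different genes are compared as molecules with no correction for length.

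Among the alpha globins, Hba-a1 had 25317 CPM in NB, 18006 at 2 M, 30223 at 10 M and 38030 in the library labelled 18 M. Hba-a2 had 17787, 13433, 21943 and 27720 CPM in the same order. The order of the libraries was the same for both copies, with Hba-a1 above Hba-a2 in each.

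Among the beta globins, Hbb-bs, the most abundant of the 8 genes, had 45202 CPM in NB, 30283 at 2 M, 52890 at 10 M and 82381 in the library labelled 18 M. Hbb-bt had 5528, 3491, 7599 and 14020 CPM. The library labelled 18 M exceeded 2 M by 2.72 times for Hbb-bs (95% interval 2.71 to 2.73) and by 4.02 times for Hbb-bt (3.99 to 4.04), against 2.11 times for Hba-a1 and 2.06 times for Hba-a2. Without that library, the range between 2 M and 10 M was 1.63 times for Hba-a2 and 2.18 times for Hbb-bt. All intervals are exact, at 95%, and cover counting error only.

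Alas2 was far below the globins, with 110 CPM in NB (106 to 113), 83.1 at 2 M (80.1 to 86.3), 142 at 10 M (138 to 145) and 354 in the library labelled 18 M (349 to 359). It followed the same order of libraries as the adult globins. Its neighbours in that order were separated beyond counting error.

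**Figure D1:**
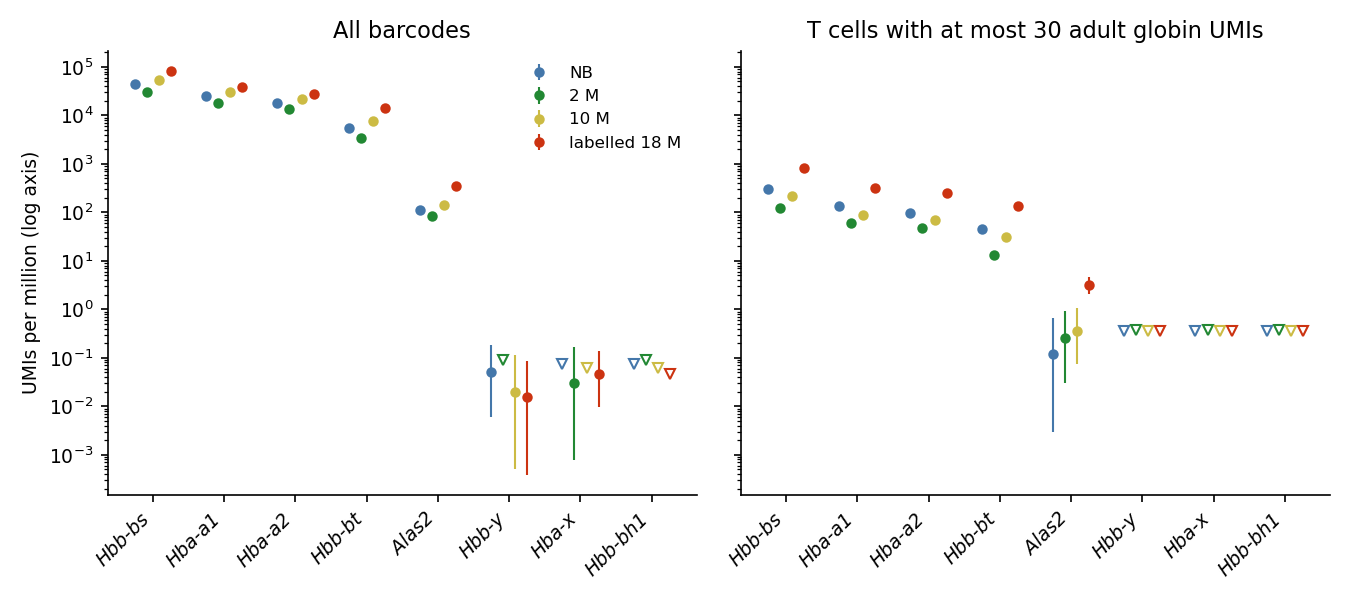
UMIs per 1000000 (log axis) of the 8 genes in the 4 libraries, over all barcodes (left) and in T cells with at most 30 adult globin UMIs (right). Points are single libraries with exact Poisson 95% intervals, often smaller than the symbol, and open triangles mark the level of 3 UMIs for a gene at 0. Hbb-bs leads from 30283 to 82381 CPM over all barcodes, and the 3 embryonic genes are at most 0.0503 CPM.

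The globin UMIs sat in few barcodes. Haemoglobin-dominated barcodes numbered 792 in NB (10.8% of barcodes, 10.1 to 11.5), 504 at 2 M (8.02%, 7.36 to 8.72), 1033 at 10 M (11.4%, 10.7 to 12.0) and 2453 in the library labelled 18 M (21.7%, 21.0 to 22.5). They held 95.3%, 95.1%, 95.5% and 92.2% of the adult globin UMIs of their libraries. In a bulk measure, fewer red cells and less globin RNA per red cell could not be told apart, whereas here the number of barcodes and the UMIs per barcode are counted apart.

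The 50% line fell in a sparse part of the distribution. In NB, 2 M and 10 M, 87.0% to 91.1% of barcodes had under 1% adult globin UMIs and 6.24% to 10.2% had at least 95%, with 57 to 150 barcodes between 1% and 50%. In the library labelled 18 M 955 barcodes lay between 1% and 50%, with a median of 1054 UMIs, and 755 between 90% and 95%. The barcodes just inside the line had 50.03% to 52.2% adult globin UMIs, and those just outside had 47.7% to 49.8%.

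**Figure D2:**
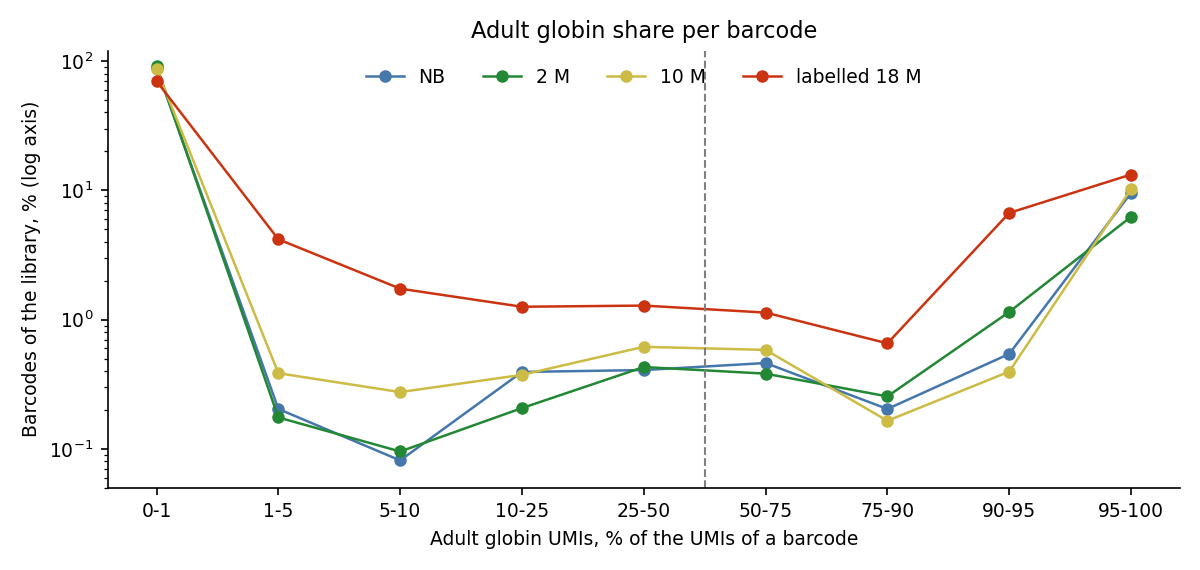
Percentage of the barcodes of each library (log axis) in 9 bins of the adult globin share of a barcode's UMIs, with a dashed line at the 50% limit. Most barcodes lie in the first bin (69.8% to 91.1%), the last bin holds 6.24% to 13.2%, and the library labelled 18 M is above the others in the bins from 1% to 50%.

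Dominated barcodes had a median of 3849.5 UMIs in NB, 3373 at 2 M, 4698 at 10 M and 3989 in the library labelled 18 M. These came from few genes, with medians of 60, 66, 53 and 109 genes, so that 475 of the 504 at 2 M and 2145 of the 2453 in the library labelled 18 M had at most 200 genes. Under the limits of the study on genes, UMIs and mitochondrial share, 47, 28, 67 and 299 dominated barcodes were left. Those few are barcodes rich in genes, with medians of 1086, 1472.5, 1282 and 341 genes.

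Alpha globin UMIs were fewer than beta globin UMIs in the dominated barcodes of each library, and least of all in the library labelled 18 M. The ratio of alpha to beta UMIs was 0.851 in NB (0.849 to 0.853), 0.932 at 2 M (0.930 to 0.935), 0.862 at 10 M (0.860 to 0.863) and 0.690 in the library labelled 18 M (0.689 to 0.691). The last was 0.740 times that of 2 M. NB and 10 M, next to each other in this order, differed by 0.0108 with intervals that do not overlap, which is small beside the spread between barcodes.

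That spread was wide. The middle 90% of dominated barcodes ran from 0.628 to 1.73 in NB, from 0.663 to 2.15 at 2 M, from 0.648 to 1.90 at 10 M and from 0.523 to 0.974 in the library labelled 18 M. The medians were 0.866, 0.968, 0.890 and 0.692. The last library was thus lower and also narrower, but its barcodes overlapped those of the other 3.

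The ratio fell with the number of UMIs of a barcode. Dominated barcodes of each library were put into 4 groups of equal size by their UMIs. From the shallowest group to the deepest, the ratio went from 1.11 to 0.794 in NB, from 1.25 to 0.855 at 2 M, from 1.19 to 0.788 at 10 M and from 0.751 to 0.678 in the library labelled 18 M. Alpha UMIs therefore exceeded beta UMIs in the shallowest group of 3 libraries and were below them in the deepest. Among barcodes of 4000 to under 8000 UMIs alone the ratio was 0.843, 0.918, 0.873 and 0.682, so the order of the lowest and the highest library remained at matched depth.

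The beta chain genes differed in the same barcodes. Hbb-bt, the minor adult beta gene, held 11.1% of adult beta UMIs in NB (11.0 to 11.1), 10.6% at 2 M (10.5 to 10.6), 12.7% at 10 M (12.7 to 12.8) and 14.6% in the library labelled 18 M (14.6 to 14.7). Single barcodes ranged much more widely. The middle 90% ran from 0.959% to 18.3% in NB, 0.429% to 18.9% at 2 M, 0.731% to 20.1% at 10 M and 2.97% to 20.4% in the library labelled 18 M. Medians were 6.74%, 3.98%, 6.47% and 14.3%, each below the pooled share, which weighs deep barcodes most.

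Depth moved with the Hbb-bt share even more than with the alpha to beta ratio. From the shallowest to the deepest group the share rose from 4.18% to 14.8% in NB, from 2.23% to 14.5% at 2 M, from 2.67% to 17.3% at 10 M and from 8.25% to 16.1% in the library labelled 18 M. At 4000 to under 8000 UMIs it was 10.1%, 9.38%, 9.61% and 15.8%. The first 3 libraries lay within 0.763 percentage points of each other there, and the library labelled 18 M was 1.68 times 2 M. Spearman's rho of the Hbb-bt share with the UMIs of a barcode was 0.675 over 570 NB barcodes, 0.688 over 326 of 2 M, 0.772 over 732 of 10 M and 0.448 over 1906 of the library labelled 18 M, taking barcodes of at least 2000 UMIs and 90% adult globin. Barcodes of 1 library share their reagents and their sequencing, so these are descriptions with no test.

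The alpha pair behaved otherwise. Hba-a2 held 41.3% of alpha UMIs in NB, 42.8% at 2 M, 42.1% at 10 M and 42.2% in the library labelled 18 M. Over the depth groups it stayed between 40.3% and 43.1%, and the middle 90% of barcodes lay between 36.4% and 47.2% in all 4 libraries. What part the near identity of both transcripts has in this closeness was not tested.

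**Figure D3:**
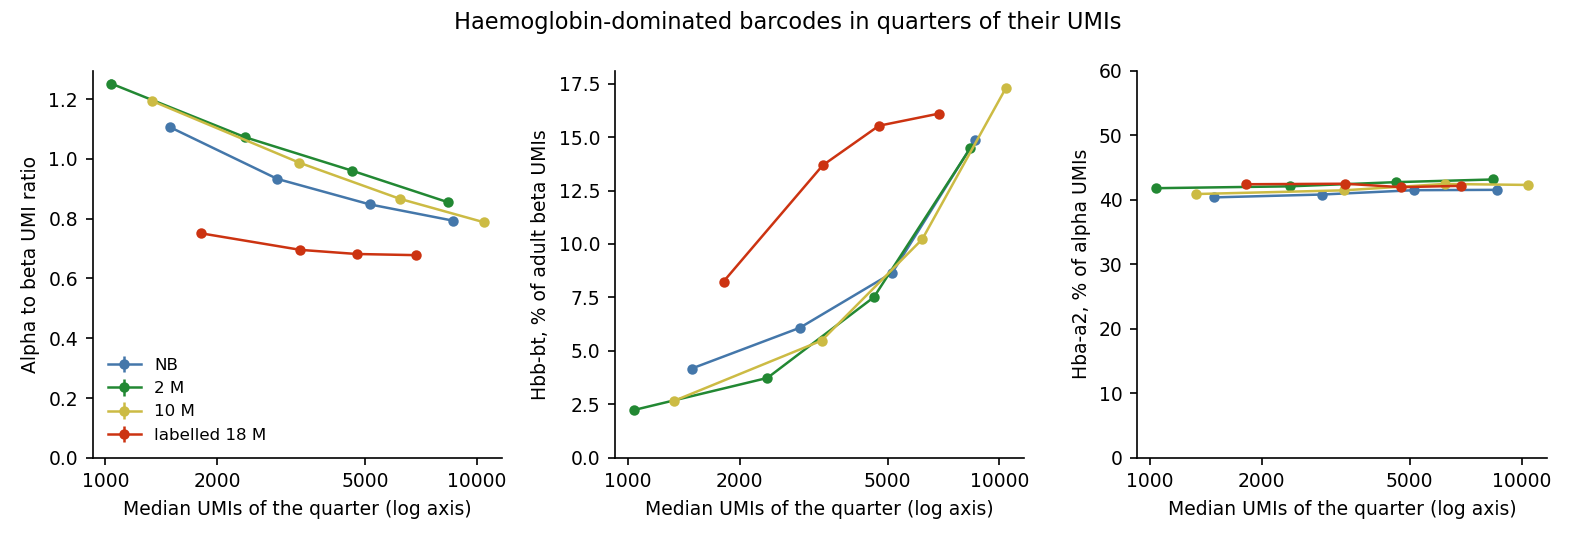
Alpha to beta UMI ratio, Hbb-bt share of adult beta UMIs and Hba-a2 share of alpha UMIs in haemoglobin-dominated barcodes, in 4 equal groups by UMIs in each library, against the median UMIs of the group (log axis). Points are sums over a group, with exact 95% intervals within the symbols. The ratio falls and the Hbb-bt share rises with depth in the 4 libraries, the library labelled 18 M lies apart in both, and the Hba-a2 share stays between 40.3% and 43.1%.

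Alas2 took no part in choosing the dominated barcodes, and it was concentrated in them. It had 1100 CPM there in NB (1067 to 1134), 1201 at 2 M (1156 to 1248), 1193 at 10 M (1164 to 1222) and 1984 in the library labelled 18 M (1957 to 2011). NB, 10 M and 2 M were close, with the intervals of 2 M and 10 M overlapping, and the library labelled 18 M was 1.65 times 2 M (1.59 to 1.72). Per barcode, the means were 5.22, 5.24, 6.52 and 8.53 Alas2 UMIs.

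An Alas2 UMI was found in 80.8% of dominated barcodes in NB (77.9 to 83.5), 72.8% at 2 M (68.7 to 76.7), 75.8% at 10 M (73.1 to 78.4) and 96.9% in the library labelled 18 M (96.2 to 97.6). In T cells, which do not make it, the shares were 1.004%, 0.719%, 1.09% and 4.80%, at median depths of 4989.5, 6257, 5942 and 4893 UMIs. Alas2 is thus far above the background in the dominated barcodes at comparable depths.

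Alas2 moved with depth in opposite ways. From the shallowest to the deepest group it went from 651 to 1208 CPM in NB, from 758 to 1330 at 2 M and from 424 to 1430 at 10 M, while in the library labelled 18 M it went from 2182 to 1823. At 4000 to under 8000 UMIs the levels were 1159, 1282, 1128 and 1926 CPM, and the library labelled 18 M was 1.502 times 2 M. Per 1000000 UMIs other than adult globins, the levels were 19652, 17722, 22185 and 24568, a ratio of 1.39. On that scale the direction turned in the barcodes of at least 90% adult globin, where the library labelled 18 M was 0.922 times 2 M (0.883 to 0.962). In narrower ranges of the globin share, the library labelled 18 M had 36868 against 17717 at 2 M at 90% to 95%. At 95% to 98% it had 50749 (49836 to 51675) against 47935 (45580 to 50380), with overlapping intervals. At 98% and above the direction was the other way, with 53398 (26656 to 95544) from 3 barcodes against 63889 (59285 to 68756) from 113. These intervals overlap too. The pooled ratio thus compares different mixtures of globin shares. Splitting the barcodes of 4000 to under 8000 UMIs and at least 90% adult globin at their median Hbb-bt share, Alas2 was 946 CPM below and 1306 CPM above the median at 10 M, 1864 and 2026 in the library labelled 18 M, 1260 and 1321 at 2 M, and 1162 and 1151 in NB, with overlapping intervals in the last 2. Depth differed between these groups too. Median UMIs below and above were 5173 and 6411 at 10 M, and 5236 and 5433 in the library labelled 18 M. They were 5028 and 6393 at 2 M, and 5176 and 6185.5 in NB. The part of depth in the Alas2 differences was not tested.

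T cells gave the level of globin RNA that is not a cell's own. The gate asked for at least 2 of the detected markers of T cells (Cd3d, Cd3e, Cd3g, Lat and Lck) and fewer than 2 of any other type, and it held 1594 NB, 1251 2 M, 1382 10 M and 1645 18 M barcodes. The median T cell had 3 adult globin UMIs in NB, 1 at 2 M, 2 at 10 M and 8 in the library labelled 18 M. At least 1 was found in 93.9%, 76.6%, 88.9% and 99.8% of T cells.

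The mean was set by few cells. It was 31.4 UMIs per T cell in NB, 24.2 at 2 M, 45.5 at 10 M and 96.4 in the library labelled 18 M, but 24, 10, 22 and 74 T cells with over 30 adult globin UMIs held 90.0% to 94.6% of them. The highest of them had 8670 adult globin UMIs, a number found in dominated barcodes. Whether these were droplets with a T cell and a red cell was not tested. The other T cells had means of 3.19 (3.101 to 3.28), 1.58 (1.51 to 1.65), 2.49 (2.40 to 2.57) and 8.06 (7.92 to 8.20) UMIs.

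Each adult gene was present in this background in its order of abundance. Among T cells with at most 30 adult globin UMIs, Hbb-bs had 307 CPM in NB, 124 at 2 M, 213 at 10 M and 803 in the library labelled 18 M. Hba-a1 had 136, 60.4, 89.3 and 324 CPM, and Hba-a2 98.9, 48.4, 68.2 and 253. Hbb-bt had 45.3, 13.3, 31.1 and 133 CPM, so the library labelled 18 M was 10.0 times 2 M (8.22 to 12.4) for Hbb-bt and 5.36 times (4.87 to 5.92) for Hba-a1. Alas2 had 1, 2, 3 and 26 UMIs in these cells, the first 3 at or under the limit of 3 UMIs.

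The background differed from the dominated barcodes in its make-up. Its alpha to beta ratio was 0.665 in NB (0.628 to 0.704), 0.793 at 2 M (0.724 to 0.867), 0.646 at 10 M (0.602 to 0.692) and 0.616 in the library labelled 18 M (0.595 to 0.639). Each was below the ratio of the dominated barcodes of its own library, with intervals that do not overlap. The Hbb-bt share was 12.8%, 9.68%, 12.8% and 14.2% of beta UMIs, with intervals that overlap those of the dominated barcodes at 2 M, 10 M and the library labelled 18 M and lie above them in NB (11.7 to 14.1).

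The number of background UMIs rose with the depth of the T cell, but less than in proportion to it. From the shallowest to the deepest of 4 equal groups of T cells it went from 2.69 to 3.62 in NB, 1.28 to 1.77 at 2 M, 2.07 to 2.80 at 10 M and 6.90 to 9.39 in the library labelled 18 M. As CPM it fell, from 979 to 411 in NB and from 2271 to 1116 in the library labelled 18 M. When each cell was thinned to 1000 UMIs, leaving out 0 to 9 T cells per library, an adult globin UMI was left in 47.9%, 24.3%, 36.7% and 79.7% of T cells.

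B cells, NK cells and neutrophils had close to the same number per barcode as T cells, while alveolar cells had more. With at most 30 adult globin UMIs, B cells had means of 3.105, 1.496, 2.30 and 7.46, NK cells 3.03, 1.57, 2.40 and 8, and neutrophils 3.07, 1.52, 2.63 and 7.34 UMIs. Alveolar macrophages were higher than T cells in each library, at 4.11 (3.69 to 4.56), 2.57 (2.27 to 2.89), 4.13 (3.81 to 4.46) and 12.0 (11.6 to 12.3). Their medians were 11029 to 17830 UMIs per barcode. Alveolar type II cells had 4.32, 1.87, 2.95 and 10.2, with the interval of 2 M (1.502 to 2.31) overlapping that of T cells, at medians of 10687 to 16055 UMIs. Fibroblasts had 2.83, 1.52 and 2.30 in the first 3 libraries, with intervals that overlap those of T cells, and 11.5 (10.9 to 12.1) in the library labelled 18 M. The part of depth in these differences was not tested.

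**Figure D4:**
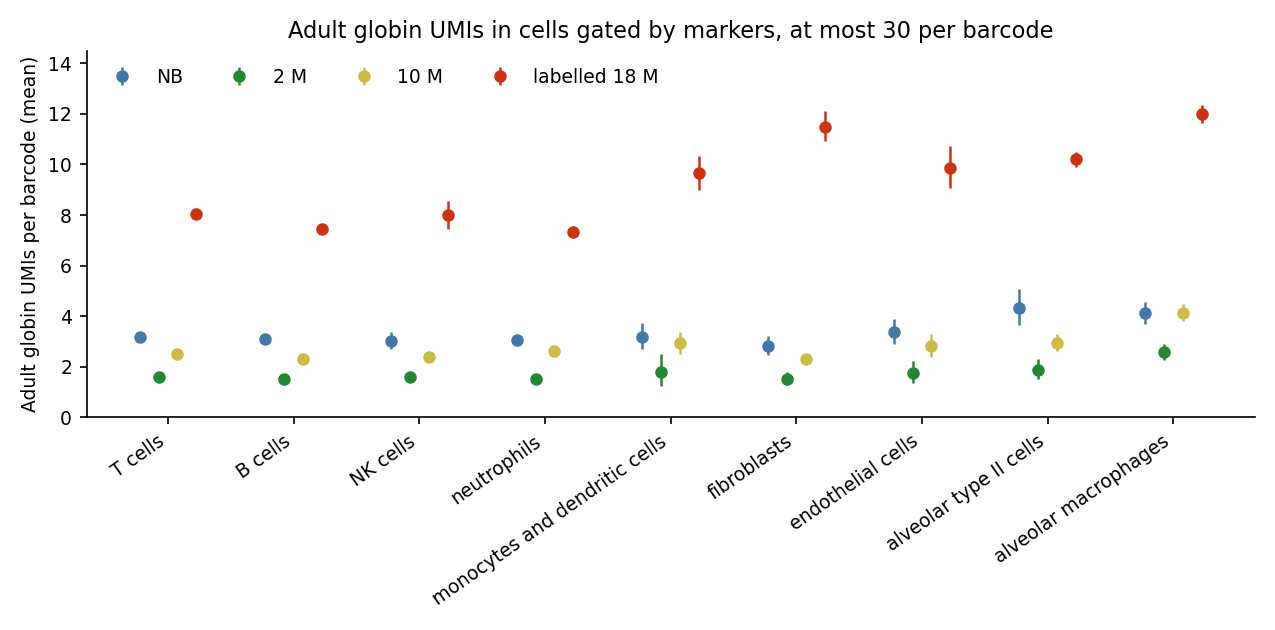
Mean adult globin UMIs per barcode in 9 marker-gated cell types of the 4 libraries, leaving out barcodes with over 30, with exact Poisson 95% intervals. Within a library the types lie close together, between 1.496 and 2.57 at 2 M and between 7.34 and 12.0 in the library labelled 18 M, and the order of the libraries is the same in each type but for alveolar macrophages, with 4.11 in NB and 4.13 at 10 M.

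Embryonic globin RNA was at the edge of detection at all 4 ages. Hbb-bh1 had 0 UMIs in every library, which allows up to 0.0463 to 0.0907 CPM when 3 UMIs are taken as the limit. Hbb-y had 2 UMIs in NB, 0 at 2 M, 1 at 10 M and 1 in the library labelled 18 M, all 4 in haemoglobin-dominated barcodes. Hba-x had 0, 1, 0 and 3 UMIs, none of them in a dominated barcode.

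The 4 Hbb-y barcodes held 72.2% to 97.9% adult globin UMIs, whereas those with Hba-x held 0% to 0.0965%. Of the latter, 2 were gated as alveolar type II cells and 2 passed no gate, and the 4 had 12432 to 20964 UMIs. The sum of the 3 genes was 0.537 UMIs per 1000000 adult globin UMIs in NB (0.0650 to 1.94), 0.463 at 2 M (0.0117 to 2.58), 0.179 at 10 M (0.00453 to 0.996) and 0.380 in the library labelled 18 M (0.104 to 0.974). These intervals overlap, so no difference between 10 days and the later ages was detectable at this depth.

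The rest of the RNA in dominated barcodes describes what they hold beside adult globins. The gene lists used for it were chosen with earlier results of these data known, so they are no independent check. The UMIs other than adult globins numbered 210514 in NB, 149136 at 2 M, 303447 at 10 M and 852080 in the library labelled 18 M, and genes were compared per 1000000 of these with T cells of the same library. A gene with at least 10 UMIs in both classes together was called where it differed at least 2-fold and its interval excluded 1. Among all genes, 6.68% were called higher in NB, 6.25% at 2 M, 7.1% at 10 M and 12.2% in the library labelled 18 M, and 5.42%, 3.44%, 8.24% and 17.3% lower. Of the members, Alas2 was called higher in the 4 libraries, from 515 times in the library labelled 18 M to 3511 times at 10 M.

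Genes of late reticulocytes were high throughout. Of the 13 in the list, 11 of 12 tested were higher in NB, 9 of 12 at 2 M, 9 of 12 at 10 M and 12 of 12 in the library labelled 18 M. Their median log2 ratio was 6.09, 5.65, 5.24 and 5.82, against 0.04, 0.28, -0.07 and -0.41 over all genes tested, with genes at 0 in a class set to 3 UMIs. Bpgm, which makes the 2,3-bisphosphoglycerate that loosens oxygen from haemoglobin, had 5221, 4707, 8071 and 8360 per 1000000 against 22.1 to 37.6 in T cells. Ube2l6, a ubiquitin-conjugating enzyme, had 6850, 6437, 9109 and 8372 per 1000000.

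Most red cell membrane genes with enough UMIs to test were higher. A gene absent from T cells could reach the limit of 10 UMIs only through the dominated barcodes, so counts among those tested lean to genes found there. Of 14 listed, 8 of 9 tested were higher in NB, 5 of 7 at 2 M, 5 of 6 at 10 M and 13 of 14 in the library labelled 18 M, with median log2 ratios of 7.37, 7.98, 8.82 and 7.25. Slc4a1, the anion exchanger band 3, had 176 per 1000000 in NB, 93.9 at 2 M, 161 at 10 M and 2169 in the library labelled 18 M. In T cells of NB and 2 M Slc4a1 had 0 UMIs. With that 0 set to 3 UMIs, it was 508-fold higher in NB.

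Haem synthesis beyond Alas2 was uneven. Of 12 genes, 5 of 12 tested were higher in NB, 3 of 12 at 2 M, 3 of 11 at 10 M and 10 of 12 in the library labelled 18 M. Fech, which adds iron to protoporphyrin to form haem, had 2313, 2280, 2590 and 2896 per 1000000. Slc25a37, mitoferrin, which brings iron into mitochondria, had 4076, 3983, 4294 and 6262. Cpox, an enzyme of the later part of the pathway, was sparse, at 7, 3, 5 and 166 UMIs. Cpox, called higher in the library labelled 18 M and in none of the other 3, had 195 per 1000000 there.

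Of the genes that act beside haemoglobin, 3 of 4 tested were higher in NB, 4 of 5 at 2 M, 4 of 5 at 10 M and 5 of 5 in the library labelled 18 M. Prdx2, a peroxide-removing enzyme, had 1325, 1106, 1987 and 2508 per 1000000, and Cat, catalase, 542, 255, 550 and 2412. Transcription factors of red cell precursors were mostly sparse. Of 8, 3 could be tested in NB, 2 M and 10 M, with Bcl11a higher and Myb lower in each. Bcl11a had 5 to 19 UMIs there, 0 of them in barcodes of at least 90% adult globin, so its call was lost in those, and it had 49 UMIs in the library labelled 18 M, 1 of them in such barcodes. Bcl11a is also expressed in B cells, whose markers are given below. In the library labelled 18 M all 8 could be tested and 6 were higher, and 4 of 6 tested in barcodes of at least 90% adult globin. Gata1 had 11, Klf1 11 and Tal1 23 UMIs there. The dominated barcodes of this library held 852080 other UMIs, against 149136 to 303447 in the others. A factor absent from T cells could reach the limit of 10 UMIs only through dominated barcodes. The numbers of factors tested and called higher therefore cannot be compared between libraries.

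Early red cell genes and genes of dividing cells completed the lists. Car2, a carbonic anhydrase, was higher in the 4 libraries, with 318, 235, 847 and 2560 per 1000000. Tfrc, the transferrin receptor, had 42.7, 26.8, 13.2 and 398 per 1000000, and was called lower than T cells at 10 M, from 4 UMIs, and higher in the library labelled 18 M. The call at 10 M was lost in barcodes of at least 90% adult globin. Of 6 genes of dividing cells, 0 were higher in NB and 1, Ccna2, in each of the others, with Top2a lower in the library labelled 18 M. Of the nuclear RNAs, Malat1 was 0.793 to 0.898 times the T cell level and Neat1 1.15 to 1.71 times, and neither was called. In barcodes of at least 90% adult globin, Malat1 was called lower in the 4 libraries, at 0.126 to 0.262 times, and Neat1 in the library labelled 18 M, at 0.457 times (0.322 to 0.630).

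These counts depend on the scale. Over the 9 lists, 31 of 53 genes tested were higher in NB, 26 of 51 at 2 M, 26 of 49 at 10 M and 51 of 65 in the library labelled 18 M. Per 1000000 of all UMIs, globins included, each log2 ratio is lower by 4.15, 3.88, 4.21 and 3.604, and 20, 16, 18 and 30 of these genes were still higher while 4, 2, 2 and 9 became lower. The shares of all genes called are given per 1000000 other UMIs only. The counts per 1000000 of all UMIs thus have no share of all genes beside them.

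Much of the other RNA came from the dominated barcodes with the lowest globin share. Barcodes of 50% to 90% adult globin numbered 49 in NB, 40 at 2 M, 68 at 10 M and 202 in the library labelled 18 M, and held 50.4% to 67.2% of the other UMIs of all dominated barcodes. They had means of 2126 to 2901 other UMIs, against 99.0 to 188 in barcodes of at least 90%. Malat1 held 3.01% to 3.62% of the other UMIs in the former and 0.346% to 0.627% in the latter. Neutrophil markers had 8788 per 1000000 of the other UMIs in NB, 389 at 2 M, 11030 at 10 M and 4266 in the library labelled 18 M over all dominated barcodes, and 5739, 1145, 1130 and 1583 in those of at least 90%, against 114743 to 168918 in neutrophils. B cell markers had 926, 1200, 1394 and 1002 over all dominated barcodes, with 5 of 5 detected in each library, and 204, 450, 188 and 189 in those of at least 90%, against 2739 to 3966 in B cells. The part of these barcodes in the list values was not tested, and the same comparison with T cells was made in barcodes of at least 90%. There 22 of 47 list genes were higher in NB, 23 of 48 at 2 M, 26 of 48 at 10 M and 44 of 61 in the library labelled 18 M, against 3.89%, 3.69%, 3.89% and 9.11% of all genes, with 9.81%, 5.32%, 16.5% and 36.6% lower. The comparison between libraries below uses these barcodes.

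Against the 2 M library, the dominated barcodes of at least 90% adult globin from the library labelled 18 M held more RNA of some red cell membrane and early red cell genes. Of all genes tested, 5.3% were called higher and 5.33% lower. Of the membrane genes 6 of 11 tested were higher, of the early genes 2 of 2, of haem synthesis 2 of 9 and of late reticulocyte genes 1 of 11. The lists hold 14 membrane and 5 early genes. These barcodes held 422616 other UMIs in the library labelled 18 M and 48920 at 2 M. A gene could thus reach the UMI limit for testing mainly through the former, so the counts lean to genes found there. The shares of all genes were taken under the same limit. Slc4a1 had 3024 against 164 per 1000000 other UMIs (18.5 times, 9.36 to 42.9), Tfrc 386 against 20.4 from 1 UMI (18.9 times, 3.34 to 750), Cat 4221 against 450 (9.39 times, 6.18 to 15.02) and Car2 3956 against 634 (6.24 times, 4.38 to 9.22). Alas2, at 0.922 times 2 M, was not called. Markers of other cell types moved too, with alveolar macrophages at 2004 against 1186, fibroblasts at 731 against 184, alveolar type II cells at 599 against 245 and endothelial cells at 499 against 143, while B cells were at 189 against 450 and pericytes and smooth muscle at 125 against 695. Their part in the list values was not tested. Per 1000000 of all UMIs the 14 list genes called higher stayed so, but they could not do otherwise. The fall of each log2 ratio on that scale was -0.846, which raises it.

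The 10 M and NB libraries were compared with 2 M in the same way. In 10 M, 2.78% of genes were called higher and 11.6% lower, with 2 of 5 membrane genes, Slc4a1 at 405 per 1000000 among them, in the former. Of the 5 list genes called higher at 10 M, 2 stayed so per 1000000 of all UMIs. In NB, 2.88% were called higher and 4.26% lower, and 0 of 5 membrane and 0 of 9 late reticulocyte genes were called in either direction. Hbq1a, a theta globin gene, was lower in NB, at 530 against 1267 per 1000000, and Cat was higher, at 1305 against 450.

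**Figure D5:**
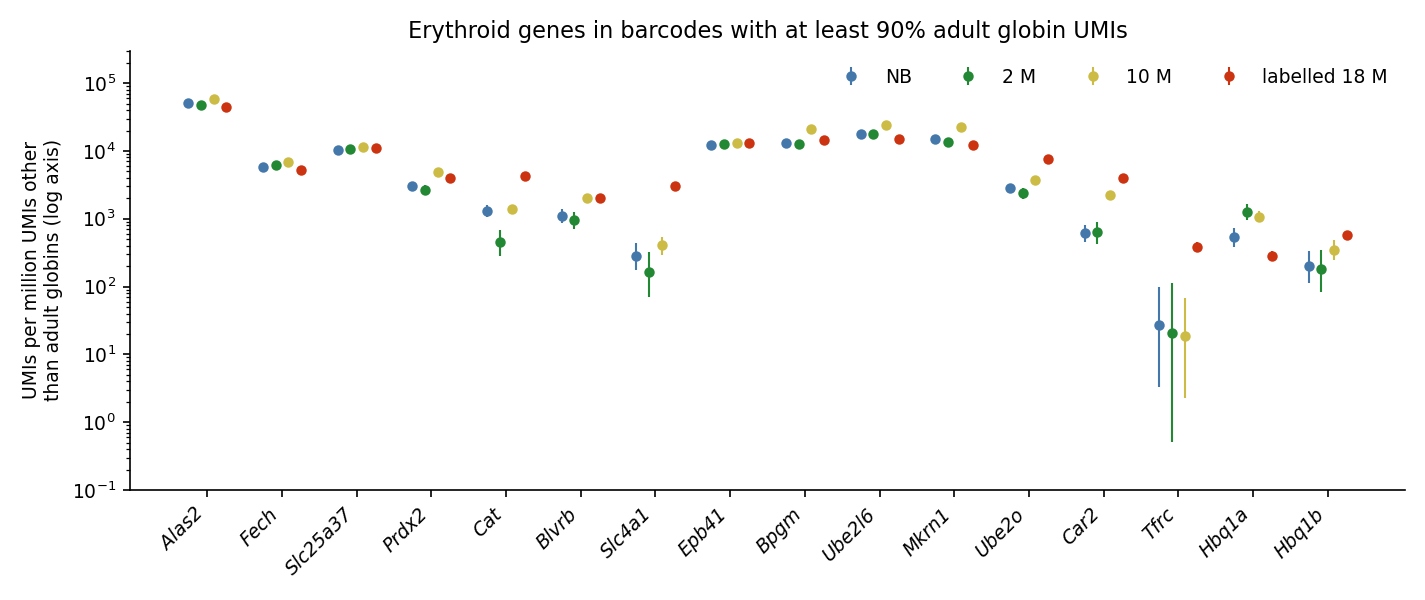
UMIs per 1000000 UMIs other than adult globins (log axis) of 16 red cell genes in barcodes with at least 90% adult globin UMIs, per library with exact Poisson 95% intervals. Alas2, Slc25a37 and Epb41 lie close together in the 4 libraries, while Slc4a1, Cat, Car2 and Tfrc are highest in the library labelled 18 M.

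The genes whose pattern was most like that of the summed adult globins were found among 14184 genes, over 41 profiles of gated cell types and dominated barcodes. Of the members, Hbb-bs, Hba-a1 and Hba-a2 had Pearson's r of 0.997, 0.995 and 0.992, and Hbb-bt 0.961. These genes are terms of the sum itself, so a high r was built in and cannot be compared with that of other genes. Alas2, a member that is not in the sum, had 0.909. The dominated barcodes among the profiles were chosen by the share of this same sum. The genes outside the members with the highest r included Apol11b (0.801), Paqr9 (0.767), Rec114 (0.767), Fam46c (0.761), Hbq1a (0.760), Trim10 (0.750) and Bpgm (0.737). The profiles of 1 library share its free RNA, so r is a description with no test. Apol11b had 738 of its 807 UMIs in dominated barcodes and Rec114 746 of 816, while Fam46c, the gene of a poly(A) polymerase that other cells also use, had 65.8% of its 24437 UMIs there.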

How the data were processed

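Lung cells of 4 mouse libraries were measured by 10x 3′ single-cell RNA sequencing. The values deposited by the authors are UMI counts of each gene in each barcode. The processing notes of the submitters name Cell Ranger 3.0.2, Seurat 2.0 and mm10, and the matrix headers software version 3.1.0. No normalization was applied, and barcodes of at least 500 UMIs remain, without the limits of the study (over 200 and under 5000 genes, at most 25000 UMIs, under 8% mitochondrial UMIs). How reads shared by near-identical globin copies were assigned is not given in the sources used here. Doublets were not called.

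Barcodes with at least 50% adult globin UMIs were called haemoglobin-dominated. A cell type needed at least 2 of its markers and fewer than 2 of any other list. Libraries stand alone, so values carry exact Poisson, Clopper-Pearson or conditional binomial 95% intervals, which treat UMIs as independent and cover counting error only, and no p-value was computed. The members and lists were chosen with earlier results of these data known. Named genes were the members, list genes of at least 10 UMIs, and the 10 genes of at least 100 UMIs closest in log2(CPM + 1) by Pearson's r over classes of at least 20 barcodes. Ahsp and Trbc2 were not analysed here, and a few genes of the lists are counted but not reported by name. Gene positions came from GENCODE M21 and promoters from RefSeq GRCm38.p6. On simulated data from 10507 genes of 2 M, the interval held 1 for 97.7% of unmoved genes, and 100% of genes raised 4-fold and 68% of those lowered were called. Alternatives were the study's limits, globin limits of 25%, 75% and 90%, medians, 3 markers, globin tails left out, thinning to 1000 UMIs, B cells, other scales and, added later, matched depth. The tools were scipy 1.17.1, numpy 2.4.6, pandas 2.3.3, matplotlib 3.10.9 and Biopython 1.88 under Python 3.11.15.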

Additional observations from a re-analysis of the deposited data

How the results depend on the processing

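The ratio of the library labelled 18 M to 2 M stayed on its side of 1 for each of 7 measures under every single alternative, and its size depended on the processing. For the adult globin share of UMIs it was 2.49, and 4.75 within the limits of the study or 4.39 without the dominated barcodes. For the share of dominated barcodes it was 2.71, and 7.06 within those limits. For the alpha to beta ratio it was 0.740, and 0.815 within the limits, 0.736 and 0.738 at globin limits of 25% and 90%, 0.715 by medians and 0.743 in dominated barcodes of 4000 to under 8000 UMIs. For the Hbb-bt share it was 1.39, and 1.15 within the limits, 1.41, 1.40 and 1.40 at limits of 25%, 75% and 90%, 3.59 by medians and 1.68 at matched depth. For adult globin UMIs per T cell it was 3.99, and 3.49 with 3 markers, 4.22 without cells over 10 UMIs, 5.10 without those over 30, 5.78 after thinning and 3.15 in B cells. For Alas2 it was 1.65, and 1.39 per 1000000 other UMIs or 1.502 at matched depth. With both a 90% limit and other UMIs it was 0.922, a value that pools different mixtures of globin shares. Its side of 1 did not hold within 90% to 95% or 95% to 98%, with overlapping intervals in the latter. At 98% and above it did, from 3 barcodes of the library labelled 18 M and with overlapping intervals. For embryonic globins it was 2.04 with an interval from 0.202 to 100, so its side is not settled. The 134 list genes called higher over the 4 libraries became 84 per 1000000 of all UMIs, a scale without a share of all genes beside it. The alternatives of over 30 UMIs and of matched depth were chosen after seeing the data. Where no value above shows it, the cause was not tested. Of 120 values of single libraries, leaving out list counts and Alas2 on the other scale, 96 moved beyond counting error and 24 did not. No paired analysis was possible because each age has 1 library. Intervals leave out the spread between animals, which 1 library per age cannot show. Embryonic globins and red cell factors rest on few UMIs.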

Other observations

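Other members of the globin family were split between red cells and tissue cells. Hbb-bh2 had 0 UMIs in the 4 libraries, which allows up to 3 UMIs in each. The theta globin genes were expressed with the adult globins, with Hbq1a at 43 UMIs in NB, 77 at 2 M, 132 at 10 M and 151 in the library labelled 18 M, and Hbq1b at 23, 11, 45 and 302. Dominated barcodes held 91.3% to 100% of these UMIs. In barcodes of at least 90% adult globin, Hbq1a in the library labelled 18 M was 0.224 times 2 M (0.164 to 0.310) per 1000000 other UMIs and Hbq1b 3.09 times (1.60 to 6.83), so the counts of the pair moved in opposite directions there. The transcripts of this pair were not compared, so how well reads can be assigned to one of them was not tested. Cygb, cytoglobin, had 474, 612, 1699 and 692 UMIs, at most 0.578% of them in dominated barcodes, and fibroblasts held the most of any gated type, with 194, 379, 988 and 284. Ngb, neuroglobin, had 25, 17, 40 and 31 UMIs, and Mb, myoglobin, had 41 UMIs in 2 barcodes of NB and 1, 6 and 5 in the others, none in dominated barcodes.

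Ribosomal protein genes held less of the other RNA in dominated barcodes of at least 90% adult globin than in T cells, with 17.8% against 34.9% in NB, 17.3% against 37.4% at 2 M, 13.3% against 36.6% at 10 M and 11.8% against 31.7% in the library labelled 18 M. Mitochondrial transcripts held 1.31% to 2.32% there, against 3.600% to 4.32% in T cells. Platelets with at most 30 adult globin UMIs were the class with the highest alpha to beta ratio in NB, 10 M and the library labelled 18 M among the gated types of at least 15 barcodes, at 1.40 (0.993 to 1.98) over 37 barcodes, 2.61 (1.71 to 4.09) over 21 and 0.971 (0.685 to 1.38) over 15, against 0.616 to 0.665 in T cells of these libraries. The limit of 15 is below the 20 barcodes asked of the profiles above, and it just admits the platelets of the library labelled 18 M. In NB the interval overlaps that of pericytes and smooth muscle, at 1.15 (0.604 to 2.21) over 18 barcodes, so the rank there is not settled. Hba-a2 held 21.4% (13.2 to 31.7) of the alpha UMIs of these platelets in NB and 1.23% (0.0313 to 6.69) at 10 M. In T cells with at most 30 adult globin UMIs it held 42.2% and 43.3%. The high ratio in NB and 10 M thus lay in UMIs assigned to Hba-a1, and its cause was not tested.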
